A study of Rattus norvegicus with 48 samples.

Results

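Old rats of the HCR line, sampled at rest, were set against old rats of the LCR line, also at rest. The labels put 6 arrays in each of these groups, 12 of the 48 arrays in the series. In rat research HCR and LCR stand for lines selected over generations for high or low capacity to run. The labels give only the abbreviations, and say old or young without an age in months. Every array held RNA of the extensor digitorum longus (EDL), a fast-contracting leg muscle, from 1 rat whose number stands in the title, so that the 6 replicates of a group are different animals. The groups used here were old HCR at rest, old LCR at rest, old HCR and old LCR after exhaustion, and young HCR and young LCR at rest and after exhaustion, all without a transgene or drug in the labels. One young HCR title names 2 animals. Replicate numbers only name an array.

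Skeletal muscle fibres differ in their myosin and in how they make ATP. Slow fibres use the slow myosin heavy chain and burn fat and sugar in mitochondria, while the fast fibres that fill this muscle rely more on glycolysis. A fibre also answers to its nerve: when the motor axon is lost or silent, rodent muscle switches on myogenin, embryonic subunits of the acetylcholine receptor and genes of protein breakdown. With age, muscle loses motor neurons and some fibres go through such a state.

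The tissue label was checked against 16 skeletal muscle genes, of which 8 were measured. Their mean log2 level lay between 13.05 and 13.13 in old HCR rats, against 13.03 to 13.06 in old LCR rats, near the top of the scale. Pairs of HCR arrays correlated at 0.967 to 0.978, pairs of LCR arrays at 0.955 to 0.976, and pairs across the lines at 0.951 to 0.973. Old LCR replicate 2 stood apart, with an upper quartile over all probe sets of 6.36, against 6.49 to 6.56 in the other LCR arrays and 6.56 to 6.59 in the HCR arrays, and a limma quality weight of 0.323. Every HCR array thus had a higher upper quartile than any LCR array; its part in small differences of bright genes was not tested. No array was left out unless a sentence says so.

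In old rats at rest the lines differed in both directions, but unevenly. Of 9558 genes tested, 1173 differed between old HCR and old LCR muscle at a Benjamini-Hochberg adjusted p below 0.05 in limma, 12.3% of all. In old HCR muscle 984 genes (10.3%) were higher and 189 (1.98%) lower. Most of the higher genes differed little: 114 were at least 1.5-fold higher and 16 at least 2-fold, against 91 and 42 of the lower genes. The split depends on the scaling: after a further quantile normalization 698 genes passed, 363 higher and 335 lower, and after median centring of the arrays 787, 536 higher and 251 lower. With only these 12 arrays in the fit 324 passed, 269 higher and 55 lower, and without LCR replicate 2 the numbers were 634 and 197; it was the lowest LCR array in 407 of the 984 higher genes. All differences below are HCR minus LCR on the log2 scale, with the standard error (SE) of the model. The model takes 1 spread per gene over all 8 groups. Its SE and p can thus be too small for genes that vary more in the rested old rats than elsewhere.

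Genes that mark muscle cut off from its nerve were lower in old HCR than in old LCR muscle. Of 23 genes on a list for denervation and the neuromuscular junction, 11 were measured, 6 of them were lower in HCR and 0 higher, with a median difference of -0.71 against 0.08 over all genes tested. With only the 12 arrays in the fit 2 of the 6 calls stood, Chrna1 and Gadd45a at adjusted p of 0.04005 and 0.0313, while Ampd3 had 0.0535 and Myog 0.0653. The 6 were the AMP deaminase Ampd3, the stress-response gene Gadd45a, the acetylcholine receptor subunits Chrna1 and Chrng, myogenin (Myog) and the histone deacetylase Hdac4. The receptor subunit Chrng belongs to the embryonic receptor, and Hdac4 connects nerve activity to myogenin in mouse muscle.

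Promoters of 3 of them are printed because these genes moved together and myogenin binds the E-box CANNTG. Each line runs from 250 bases before to 50 after the start in RefSeq (GRCr8), with each CANNTG in capitals: Chrna1 lies at chr3:78877304-78877603 on the minus strand, Chrng at chr9:95325734-95326033 and Myog at chr13:48297226-48297525, both on the plus strand.
Chrna1: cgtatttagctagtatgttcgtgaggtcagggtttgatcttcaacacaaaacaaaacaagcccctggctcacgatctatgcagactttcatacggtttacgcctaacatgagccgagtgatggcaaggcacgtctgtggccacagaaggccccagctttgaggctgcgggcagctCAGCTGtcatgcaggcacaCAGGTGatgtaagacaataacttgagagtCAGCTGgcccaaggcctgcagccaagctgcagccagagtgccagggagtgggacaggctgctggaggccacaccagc
Chrng: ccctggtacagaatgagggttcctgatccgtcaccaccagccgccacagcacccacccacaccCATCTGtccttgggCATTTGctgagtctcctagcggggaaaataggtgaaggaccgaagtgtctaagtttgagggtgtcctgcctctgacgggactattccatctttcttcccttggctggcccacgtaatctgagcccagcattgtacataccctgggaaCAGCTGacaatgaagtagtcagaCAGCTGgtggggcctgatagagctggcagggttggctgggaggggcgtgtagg
Myog: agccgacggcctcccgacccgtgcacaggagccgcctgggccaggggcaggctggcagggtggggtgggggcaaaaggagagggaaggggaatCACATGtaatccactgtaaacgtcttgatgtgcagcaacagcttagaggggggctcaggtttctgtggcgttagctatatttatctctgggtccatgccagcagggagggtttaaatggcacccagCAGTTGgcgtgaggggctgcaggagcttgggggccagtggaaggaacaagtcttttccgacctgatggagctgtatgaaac
CANNTG and its form CAGCTG read the same on both strands, and every CAGCTG is also a CANNTG. The Chrna1 window holds 3 CANNTG, 2 of them CAGCTG, the Chrng window 4 and 2, and the Myog window 2 and 0. Of the 6 genes, 5 had a promoter in the table, 5 of which held CANNTG and 3 CAGCTG. Over the 8 measured list members with a promoter, those that did not pass included, it was 8 and 5, so that the letters do not set the called members apart. Over all 27457 promoters of this length the shares were 71.6% and 15.1%, and over the 7808 of genes tested 64.2% and 16.6%. A match describes the letters and shows no binding.

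Ampd3 had its lowest, median and highest log2 levels at 5.51, 6.46 and 8.44 in old HCR rats, against 6.51, 9.52 and 10.17 in old LCR rats. LCR replicate 3, at 6.51, lay within the HCR range, and the other 5 LCR rats lay above every HCR rat. The difference was -2.29 ± 0.47 (adjusted p = 0.00107), a level 4.9-fold higher in LCR. Its SD was 1.09 and 1.37 in old HCR and old LCR rats at rest, and 1.11 and 0.69 after exhaustion. In young HCR and young LCR rats it was 0.27 and 0.31 at rest, and 0.28 and 0.80 after exhaustion. The shared spread of the model draws on all of these.

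Gadd45a lay at 7.50, 7.62 and 9.59 in HCR rats, against 8.36, 10.33 and 10.98 in LCR rats, and differed by -2.05 ± 0.38 (adjusted p = 0.000498). HCR replicate 2, at 9.59, was the high one of its line and overlapped with the lower LCR rats. Chrna1, the alpha subunit shared by embryonic and adult receptors, lay at 7.22, 7.73 and 8.37 in HCR rats, against 7.92, 9.91 and 11.31 in LCR rats (-1.94 ± 0.39, adjusted p = 0.000985). Again only LCR replicate 3 lay within the HCR range.

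Myog lay at 6.32, 6.66 and 7.72 in HCR rats, against 6.37, 8.59 and 9.11 in LCR rats (-1.42 ± 0.36, adjusted p = 0.00637). Chrng, near the lower end of the scale, lay at 3.41, 4.08 and 4.59 in HCR rats, against 4.17, 5.34 and 6.98 in LCR rats (-1.29 ± 0.32, adjusted p = 0.00575). Hdac4 differed less, at -0.71 ± 0.17 (adjusted p = 0.00478). Myog and Hdac4 were above every HCR rat in 5 of 6 LCR rats, and Chrng in 4 of 6.

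The other 5 measured members did not pass. The adult receptor subunits Chrne and Chrnb1 differed by -0.19 and -0.30, the receptor clustering protein Rapsn by 0.03, Dok7, the activator of the junction's kinase MuSK, by 0.13 and the myogenic factor Myod1 by 0.03.

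**Figure D1:**
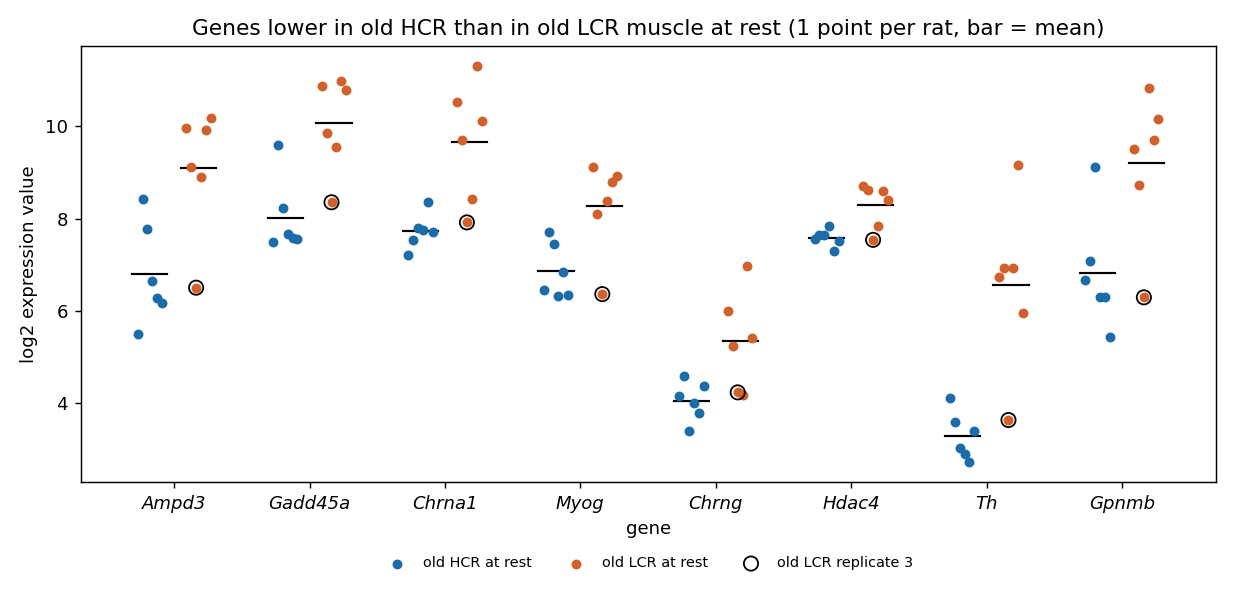
Log2 expression of 8 genes in the 6 old HCR rats (left of each pair) and the 6 old LCR rats (right) at rest, 1 point per rat, with bars at the group means. LCR replicate 3, circled, lies within the HCR range for all 8 genes, while for Chrna1, Myog, Hdac4, Ampd3 and Th the other 5 LCR rats lie above every HCR rat.

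The single gene that differed most was Th, tyrosine hydroxylase, the enzyme of catecholamine synthesis, which sympathetic nerve fibres also carry. Its levels were 2.72, 3.22 and 4.12 in HCR rats, against 3.64, 6.84 and 9.17 in LCR rats, a difference of -3.26 ± 0.43 (adjusted p = 4.14e-06) or 9.61-fold. It was near the floor of the scale in every HCR rat and in LCR replicate 3, and high in the other 5 LCR rats. The other 7 measured members of a list of Schwann cell and nerve genes did not pass, and that list had a median difference of 0.04.

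Further genes among the 14 with the lowest values in HCR relative to LCR fall into a few kinds. Mybph, myosin binding protein H, lay at 7.10, 8.62 and 9.05 in HCR rats, against 10.01, 10.67 and 11.29 in LCR rats, without overlap (-2.33 ± 0.43, adjusted p = 0.000396). Mtarc1, a molybdenum-dependent reductase of the outer mitochondrial membrane, lay at 3.95, 4.48 and 5.39 in HCR rats, against 6.40, 6.77 and 7.0 in LCR rats (-2.26 ± 0.23, adjusted p = 1.66e-08). Slc51a, a subunit of a steroid and bile acid transporter, lay at 4.11, 4.28 and 5.13 in HCR rats, against 5.14, 6.47 and 7.67 in LCR rats (-1.98 ± 0.41, adjusted p = 0.00125). These 3 did not overlap between the lines, as was the case for 27 genes lower in HCR, 0.282% of all tested.

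Sln, sarcolipin, an inhibitor of the sarcoplasmic calcium pump, differed by -2.12 ± 0.53, with LCR levels from 6.86 to 11.22 and HCR levels from 6.84 to 8.10. Its LCR values were spread widely, with replicates 1, 5 and 6 at 11.22, 10.88 and 10.22 and replicate 4 at 6.86. Eda2r, a receptor of ectodysplasin, differed by -2.08 ± 0.41, and the beta-tubulin Tubb6 by -2.26 ± 0.46. Cst7, a cysteine protease inhibitor, differed by -2.30 ± 0.39 and the phosphatase inhibitor Ppp1r14c by -2.07 ± 0.44. Prrt4, a proline-rich membrane protein, was 1.99 lower on this scale in HCR (-1.99 ± 0.48). In each of these 6 genes 5 of 6 LCR rats lay above every HCR rat.

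Gpnmb, a glycoprotein of macrophages and of lysosomal stress, differed by -2.38 ± 0.49 (adjusted p = 0.00114). It lay at 5.44, 6.49 and 9.13 in HCR rats, against 6.30, 9.61 and 10.84 in LCR rats, and 4 LCR rats lay above every HCR rat. HCR replicate 3, at 9.13, was the high one of its line, and 5 of 6 HCR rats lay within the LCR range, whose low end was LCR replicate 3. It was the 1 of 12 measured macrophage markers to pass. The mean of those markers ran from 5.53 to 6.40 in HCR rats, against 5.74 to 6.67 in LCR rats, and Gpnmb is part of that mean.

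One LCR rat was unlike the other 5 in these genes. LCR replicate 3 lay within the HCR range or beyond its far side in 133 of the 189 genes lower in HCR (70.4%), against 13 for LCR replicate 1 and 63 for replicate 2. Its mean over the denervation list was 7.15, against 7.74 to 8.71 in the other LCR rats and 6.99 to 7.61 in the HCR rats. Without it 1323 genes passed, 1067 higher and 256 lower in HCR. The spread between rats was wider in LCR as well: the SD was larger in LCR than in HCR in 65.7% of all genes and in 10 of the 11 denervation genes.

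Genes of muscle breakdown and of growth arrest moved in part. Of 18 measured genes for atrophy and proteolysis, 3 were lower in HCR and 1 higher, with a median of -0.001. The lower ones were Eda2r, the lysosomal protease cathepsin L (Ctsl, -0.62 ± 0.15) and the ubiquitin ligase Trim63 (MuRF1, -0.38 ± 0.12), while the transcription factor Foxo3 was higher (0.32 ± 0.10). Trim63 lay at 9.98 to 10.50 in HCR rats, against 9.91 to 10.86 in LCR rats, with LCR replicate 3 again the lowest. Of 10 measured p53 and senescence genes 3 were lower in HCR, namely Eda2r, the cell cycle inhibitor Cdkn2b (-1.0 ± 0.29) and the p53-induced Tp53inp1 (-0.57 ± 0.13), and 0 higher, with a median of -0.28. Of 15 measured embryonic and regeneration genes 3 were lower, Sln, Myog and the imprinted RNA H19, and 0 higher.

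Slow fibre genes were higher in old HCR muscle. Of 11 measured members of the slow fibre list, 6 were higher in HCR and 0 lower, with a median of 0.73. Myh7, the slow myosin heavy chain, lay at 9.37, 11.43 and 11.60 in HCR rats, against 4.94, 9.16 and 10.21 in LCR rats. HCR replicates 3 to 6 lay above every LCR rat, HCR replicates 1 and 2 within the LCR range, and LCR replicate 4 far below the rest. The difference was 2.40 ± 0.52 (adjusted p = 0.00197), or 5.29-fold, and 1.69 without LCR replicate 4.

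The other slow fibre members that passed were the slow troponins Tnnt1 and Tnnc1, the slow myosin light chain Myl3, the slow calcium pump Atp2a2 and Myh7b. Tnnt1 lay at 8.53, 10.62 and 10.88 in HCR rats, against 6.25, 8.38 and 9.39 in LCR rats (2.06 ± 0.43, adjusted p = 0.00128). Tnnc1 differed by 1.92 ± 0.40, Myl3 by 1.85 ± 0.47, Atp2a2 by 1.43 ± 0.31 and Myh7b by 0.73 ± 0.23. In Tnnt1, Tnnc1 and Atp2a2, 5 of 6 HCR rats lay above every LCR rat. With only the 12 arrays in the fit, 1 of the 11 members passed, and the adjusted p was 0.0942 for Myh7 and 0.0569 for Tnnt1.

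The order of the LCR rats was not the same in denervation and slow fibre genes. LCR replicate 5 had the highest denervation mean, 8.71, and a slow fibre mean of 7.80, the third lowest of LCR. LCR replicates 1 and 6 had denervation means of 8.66 and 8.37 and slow fibre means of 8.70 and 8.63, among the higher of LCR. Over the slow fibre list the HCR rats ran from 8.15 to 9.57, against 6.82 to 8.72 in the LCR rats. In bulk tissue, fewer cells or fibres of a type and less RNA per cell cannot be told apart. Of the 6 measured fast fibre genes 0 passed in either direction, and the fast myosin heavy chain Myh4 lay at 13.05 to 13.14 in HCR rats, against 13.09 to 13.28 in LCR rats. These values lay close to the top of the scale, and whether that compressed a difference was not tested.

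**Figure D2:**
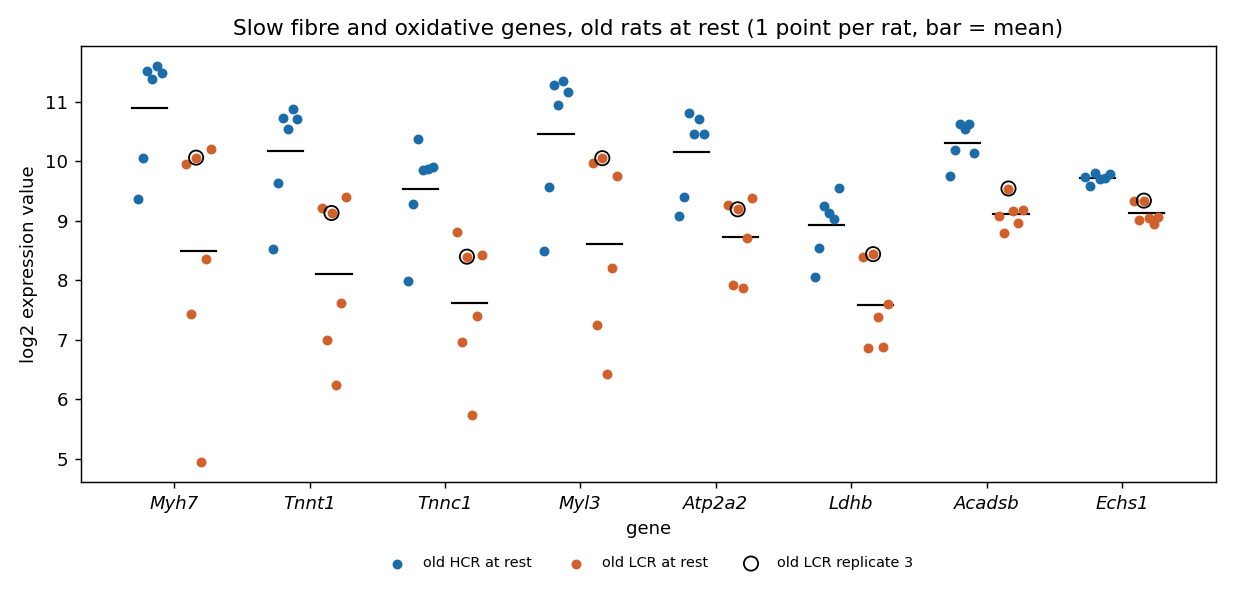
Log2 expression of 6 slow fibre and oxidative genes with a wide spread and of Acadsb and Echs1, in the 6 old HCR rats (left of each pair) and the 6 old LCR rats (right) at rest, 1 point per rat, with bars at the group means and LCR replicate 3 circled. The lines overlap in Myh7, Tnnt1, Tnnc1, Myl3, Atp2a2 and Ldhb and do not overlap in Acadsb and Echs1.

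Genes of fuel oxidation were slightly and widely higher in old HCR muscle. Of 28 measured genes of respiratory complex I, 16 were higher in HCR and 0 lower, and of 31 genes of complexes II to V, 19 and 0. Their medians were 0.30 and 0.26, against 0.08 over all genes. All 28 and all 31 had a positive difference, as had 6432 of the 9558 genes tested. Fatty acid uptake and oxidation had 13 of 30 higher and 0 lower (median 0.35), the breakdown of branched-chain amino acids 10 of 17 and 0 (0.29), the citric acid cycle 7 of 18 and 0 (0.16), and glycolysis and glycogen 5 of 16 and 0 (0.15).

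These counts move with the scaling of the arrays. Under a further quantile normalization complex I kept 6 higher and complexes II to V 8, and under median centring 9 and 11. The fatty acid list had 10 and 11 under those settings. With only the 12 arrays in the fit complex I had 4 and complexes II to V had 1.

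Acadsb, the mitochondrial short and branched chain acyl-CoA dehydrogenase, was the clearest of the metabolic genes. It lay at 9.75, 10.37 and 10.62 in HCR rats, against 8.79, 9.12 and 9.54 in LCR rats, without overlap (1.19 ± 0.14, adjusted p = 1.38e-07). Such separation with HCR above held for 288 genes, 3.01% of all tested. Echs1, the enoyl-CoA hydratase of fat oxidation, lay at 9.58 to 9.80 in HCR rats, against 8.95 to 9.34 in LCR rats (0.60 ± 0.09, adjusted p = 4.12e-05).

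Acaa2, the mitochondrial thiolase, lay at 10.16 to 10.51 in HCR rats, against 9.28 to 10.06 in LCR rats (0.60 ± 0.12). Idh2, the mitochondrial isocitrate dehydrogenase, lay at 11.74 to 12.02 in HCR rats, against 11.14 to 11.65 in LCR rats (0.49 ± 0.08, adjusted p = 8.53e-05). Cox7b, a subunit of cytochrome c oxidase, lay at 10.81 to 11.17 in HCR rats, against 10.27 to 10.66 in LCR rats (0.50 ± 0.10). Ndufb8 of complex I lay at 9.31 to 9.67 in HCR rats, against 8.67 to 9.16 in LCR rats (0.47 ± 0.09). The lines did not overlap in these 4 genes.

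Further fuel genes passed, some with and some without overlap between the lines. Lipoprotein lipase (Lpl) differed by 0.59 ± 0.14 and the fatty acid carrier Fabp4, which endothelium and fat also express, by 0.60 ± 0.13. Bckdhb, a subunit of the branched-chain keto acid dehydrogenase, and Ppm1k, the phosphatase that activates it, differed by 0.50 ± 0.10 and 0.50 ± 0.13, and Mccc2 of leucine breakdown by 0.52 ± 0.10, with no overlap in Bckdhb and Mccc2. Ldhb, the lactate dehydrogenase subunit of oxidative muscle, lay at 8.05, 9.08 and 9.56 in HCR rats, against 6.87, 7.49 and 8.44 in LCR rats (1.33 ± 0.26, adjusted p = 0.000841). The glucose transporter Slc2a4 (GLUT4) differed by 0.32 ± 0.07 and glycogen synthase Gys1 by 0.32 ± 0.07.

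Regulators of mitochondrial content moved less. Of 16 measured genes for mitochondrial biogenesis and dynamics 3 were higher in HCR, Ppargc1b (0.35 ± 0.08), Perm1 (0.36 ± 0.11) and Esrra (0.37 ± 0.13), and 0 lower. Under the further quantile normalization 0 were higher and 1 lower.

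**Figure D3:**
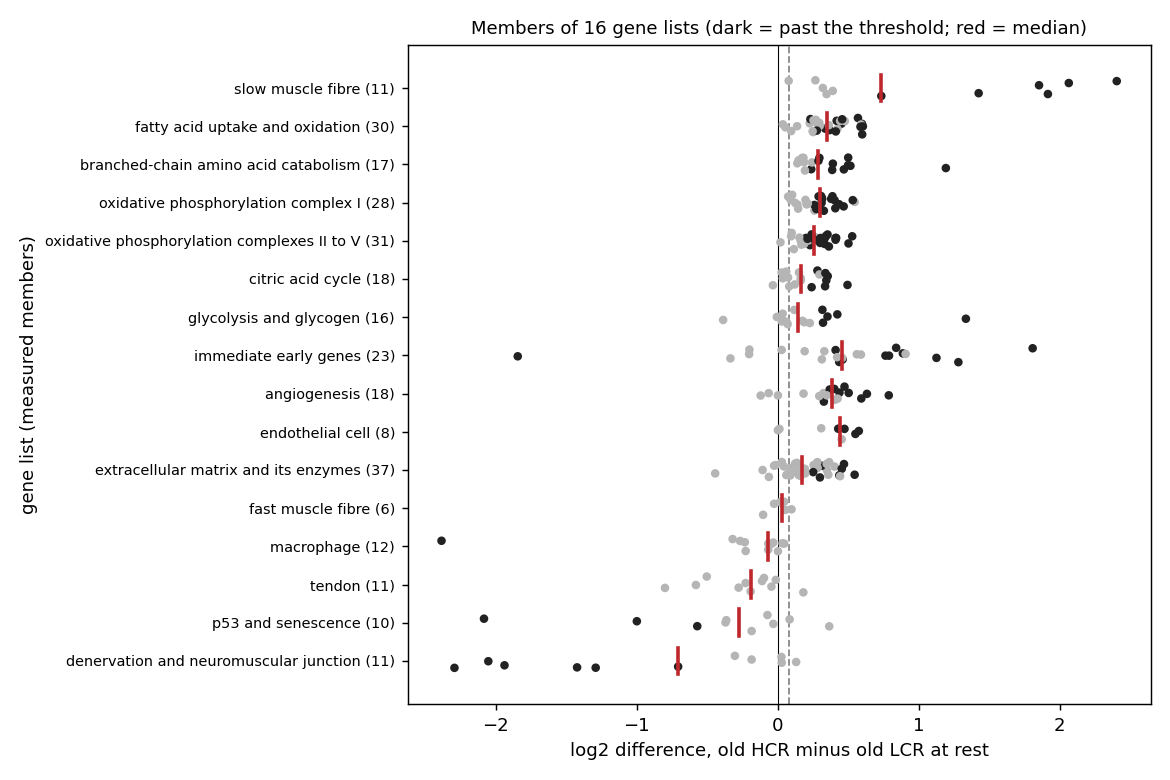
Log2 difference, old HCR minus old LCR at rest, of each measured member of 16 gene lists, with dark points past the adjusted p threshold, red bars at the medians and a dashed line at the median of all genes, 0.08. Most members of the oxidative lists sit right of 0 by small amounts, the slow fibre list reaches 2.40, and the denervation list reaches -2.29.

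Vessel genes were higher in old HCR muscle. Of 8 measured endothelial markers 4 were higher in HCR and 0 lower, with a median of 0.44. Cdh5, the cadherin of endothelial junctions, lay at 9.48, 9.60 and 9.64 in HCR rats, against 8.90, 8.97 and 9.18 in LCR rats, without overlap (0.58 ± 0.09, adjusted p = 0.000115). Esam, Tie1 and Emcn, an adhesion molecule, a receptor and a sialomucin of endothelium, differed by 0.55 ± 0.15, 0.47 ± 0.10 and 0.43 ± 0.10. The mean of the 8 markers ran from 7.339 to 7.81 in HCR rats, against 6.88 to 7.333 in LCR rats, so that the lines were barely apart. List means were also apart, with HCR above, for angiogenesis, branched-chain amino acid catabolism, glycolysis and glycogen, and insulin and IGF signalling. There the lowest HCR rats lay at 7.0942, 9.4357, 10.6305 and 8.3031, against 7.0885, 9.3664, 10.5936 and 8.2991 for the highest LCR rats. The first and last of these lists were barely apart too, and most other list means overlapped. Every HCR array also had a higher upper quartile than any LCR array, and its part in these gaps was not tested. With HCR below, means were apart for T and NK cell markers and for the Schwann cell and nerve list, which holds Th. In the latter list 6 of 8 members had a positive difference, the median was 0.04, and Th was the 1 member to pass. The 4 endothelial calls were also made after quantile normalization and with the 12 arrays alone, and 3 were made without LCR replicates 1 and 6.

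Of 18 measured genes of angiogenesis 9 were higher in HCR and 0 lower, with a median of 0.39. They included the endothelial proteoglycan Esm1 (0.79 ± 0.22), the Notch ligand Dll4 (0.63 ± 0.17), the nitric oxide synthase Nos3 (0.59 ± 0.14) and Efnb2, an arterial ephrin (0.50 ± 0.11). Of 8 smooth muscle and pericyte markers 2 were higher, the adhesion molecule Mcam (0.62 ± 0.10) and the actin-binding Tagln (0.53 ± 0.15). Of 37 measured genes of the extracellular matrix 7 were higher and 0 lower, among them the protease inhibitor Timp3 (0.55 ± 0.12), Sparc (0.47 ± 0.11), the collagens Col5a3 (0.45 ± 0.13) and Col4a1 (0.44 ± 0.10), the last a part of basement membranes.

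Immediate early genes, which cells switch on within minutes of a stimulus, were higher in resting old HCR muscle. Of 23 measured members 10 were higher and 1 lower, with a median of 0.46. Fos lay at 6.23, 8.42 and 9.61 in HCR rats, against 5.55, 6.22 and 7.12 in LCR rats (1.81 ± 0.44, adjusted p = 0.00528). HCR replicates 1, 2, 4 and 5 were above every LCR rat, and replicates 3 and 6 were not. Egr1 differed by 1.28 ± 0.39 and Atf3 by 1.13 ± 0.35, both transcription factors, and HCR replicate 6 was the lowest of its line in both.

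The lower member was Rrad, an inhibitor of calcium channels, at -1.84 ± 0.46. It lay at 4.47 to 7.28 in HCR rats, against 4.53 to 8.59 in LCR rats. These calls depend on the setting: after quantile normalization 3 members were higher, without LCR replicates 1 and 6 there were 4, and with the 12 arrays alone 2. The labels give no time between handling and sampling.

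Of 13 measured targets of glucocorticoids and FoxO factors 5 were higher in HCR and 1 lower. Irs2, an adaptor of the insulin receptor, lay at 7.34 to 8.44 in HCR rats, against 6.76 to 7.21 in LCR rats, without overlap (0.83 ± 0.19). Fkbp5, a chaperone of the glucocorticoid receptor, differed by 0.84 ± 0.22 and the transcription factor Zbtb16 by 0.63 ± 0.16. The lower one was the metallothionein Mt2A, which binds metals: it lay at 4.16, 4.57 and 4.96 in HCR rats, against 4.41, 6.64 and 7.79 in LCR rats (-1.91 ± 0.39, adjusted p = 0.000985). Of 22 measured genes of insulin and IGF signalling 5 were higher and 0 lower, including Irs2, Slc2a4, Igf1r (0.29 ± 0.10) and Tsc1 (0.28 ± 0.07). Over all genes tested 10.3% were higher and 1.98% lower. After quantile normalization 3 members of this list were higher and 1 lower. With only the arrays of this contrast in the fit 1 was higher. The call of Igf1r (limma adjusted p = 0.0408) was lost in 13 of 22 alternatives, that of Irs2 in 0, and those of Slc2a4 and Tsc1 in 1 each.

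The remaining pathway lists gave few calls. Antioxidant genes had 3 of 24 higher, among them the peroxiredoxin Prdx5 (0.38 ± 0.09), and 3 lower, Mt2A, the haem oxygenase Hmox1 (-0.54 ± 0.18) and thioredoxin Txn1 (-0.40 ± 0.12). Heat shock proteins had 3 of 21 higher, Hspa1b (0.79 ± 0.24), Hspb3 (0.32 ± 0.10) and their regulator Hsf1 (0.29 ± 0.10), and 1 lower, Hspb8 (-0.47 ± 0.15). Over all genes tested 10.3% were higher and 1.98% lower. Without LCR replicate 2, 0 of the heat shock list were higher. Hspa1b, Hspb3, Hsf1 and Hspb8 lost the call in 3, 9, 13 and 11 of 22 alternatives. Calcium handling and excitation had 2 of 13 higher, the potassium channel subunit Kcnj11 (0.43 ± 0.10) and Srl (0.19 ± 0.06), and 1 lower, Sln. Hspa1b has a near-identical copy in the genome, so that its value is uncertain.

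Immune lists gave few calls in either direction. The interferon list had 1 of 18 higher, Ifit2 (0.46 ± 0.15), and 2 lower, Ifi27l2b (-0.55 ± 0.17) and Ifi27, which lay at 9.18, 9.44 and 10.24 in HCR rats, against 10.55, 10.73 and 10.83 in LCR rats, without overlap (-1.11 ± 0.20, adjusted p = 0.000266). MHC and antigen presentation had 1 of 27 higher, RT1-DMb (0.71 ± 0.24), and 1 lower, beta-2 microglobulin (B2m, -0.46 ± 0.14). Inflammatory signalling had 1 of 18 higher, the receptor Il6r (0.48 ± 0.14), and 0 lower, and complement 0 of 8. The clock list had 1 of 11 higher, the repressor Nfil3 (0.86 ± 0.17), and the polyamine list 1 of 7 higher, Oaz2 (0.32 ± 0.09). RT1 genes are a family of close copies, and values of one may hold signal of others.

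Markers of other cell types were looked at on the same arrays. Of 11 tendon markers 0 passed, but their mean was 6.86 and 7.05 in LCR replicates 1 and 6, against 5.55 to 5.85 in the other LCR rats and 5.55 to 6.04 in HCR rats. Of 18 liver plasma protein genes 0 passed; their mean was 6.78 in LCR replicate 2 and 6.56 in HCR replicate 5, against 4.16 to 5.76 in the other 10 rats. Albumin alone ran from 5.52 to 10.77 in HCR rats, against 5.78 to 11.20 in LCR rats. The part of these markers in the results was not tested, except that without LCR replicates 1 and 6 together 867 genes passed, 782 higher and 85 lower, and 5 of the 6 denervation calls stood.

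Among the other markers, T and NK cells had 1 of 5 lower in HCR (Nkg7, -0.71 ± 0.20) and satellite cells 1 of 8 higher (Itga7, 0.32 ± 0.11). Of the T and NK markers 0 of 5 had a positive difference, with a median of -0.42. Their mean was 4.49 to 4.90 in HCR rats, against 4.96 to 5.20 in LCR rats. Nkg7, with medians of 4.03 and 4.58 in HCR and LCR rats, lay near the filter at 4.54. Fibroblasts had 1 of 11 higher (Cd34, 0.36 ± 0.11), a marker that endothelium shares. Adipocytes had 1 of 9 higher, Fabp4, and 1 lower, Cidea (-1.0 ± 0.29). The few measured mast cell (4), B cell (1), erythroid (2) and bone (2) markers gave 0 calls, and 0 of the neutrophil markers were bright enough to test.

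The old line difference was then set beside the young rats at rest, which share no array with it. Between young HCR and young LCR muscle 145 genes (1.52%) passed, 110 higher (1.15%) and 35 lower (0.366%) in HCR. After quantile normalization the split was 46 higher and 47 lower. Of the 984 genes higher in old HCR 72 were higher in young HCR too, 7.32% of the old and 65.5% of the young genes. Of the 189 lower ones 9 were lower in young HCR, 4.76% of the old and 25.7% of the young genes. Over the 984 genes the median difference was 0.37 in old rats and 0.15 in young rats, and over the 189 it was -0.58 and -0.07; the first of each pair is the value that chose the genes.

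The denervation list gave 0 calls in young rats at rest, and its median difference there was -0.03. Its mean level was 7.20 ± 0.23 in old HCR and 8.11 ± 0.60 in old LCR rats at rest, and 6.98 ± 0.11 in young HCR and 6.95 ± 0.09 in young LCR rats (SD, n = 6 each). Chrna1 differed by 0.09 and Ampd3 by 0.43 in young rats, and neither passed. The slow fibre list gave 0 calls in young rats with a median of 0.52: its mean was 9.08 ± 0.57 in old HCR and 8.003 ± 0.81 in old LCR rats, and 9.21 ± 0.15 in young HCR and 8.77 ± 0.40 in young LCR rats. Fatty acid genes had 6 of 30 higher in young HCR, with a median of 0.32, close to the 0.35 of old rats. For complex I it was 2 of 28 and 0.17.

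A test of the change in the line difference with age, old minus young, gave 6 genes (0.0628%), 3 in each direction (0.0314%; 5 positive and 8 negative after quantile normalization, 3 and 6 after median centring), and 966 at an unadjusted p below 0.05. Th had the largest, -3.05 ± 0.61 (adjusted p = 0.0308): its means were 3.30 and 6.56 in old HCR and old LCR rats, and 3.41 and 3.62 in young HCR and young LCR rats. The potassium channel Kcnq5 (-1.01 ± 0.22) and Tcp11l1 (-0.86 ± 0.18) also had negative values, and the actin nucleator Lmod1 (0.98 ± 0.20), Sparc (0.80 ± 0.16) and the ciliary Tekt1 (1.47 ± 0.30) positive ones. For Tekt1 the line difference was in the young rats, at -1.65, and -0.18 in old rats. For Ampd3 (-2.73 ± 0.66, adjusted p = 0.0777) and Chrna1 (-2.03 ± 0.55, adjusted p = 0.11) this test did not pass. Without old LCR replicate 3 it gave 77 genes, and from 0 to 22 when any other single array was left out.

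**Figure D4:**
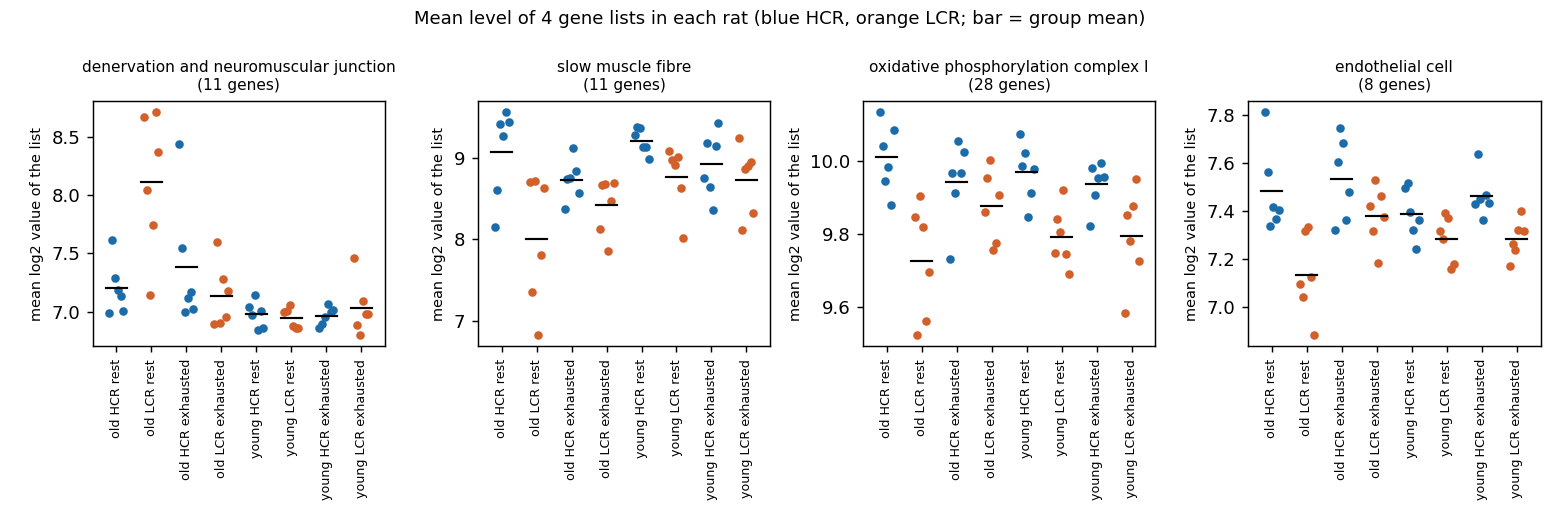
Mean log2 level of 4 gene lists in each rat, HCR in blue left of LCR in orange, for old and young rats at rest and after exhaustion, with bars at the group means. The denervation list is high in old LCR rats at rest, mean 8.11, and between 6.95 and 7.38 in the group means elsewhere. Among single rats, old HCR replicate 1 after exhaustion reached 8.44, within the 7.15 to 8.71 of old LCR rats at rest. Its array had a limma quality weight of 0.36.

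After exhaustion the old lines differed in part in the same genes. Between old HCR and old LCR muscle after the run 385 genes (4.03%) passed, 305 higher (3.19%) and 80 lower (0.837%) in HCR, and 0 of the denervation list. The split was 217 higher and 167 lower after quantile normalization and 219 and 115 after median centring. Of the 305 higher genes 110 were also higher at rest, 36.1% of the exhausted and 11.2% of the rested genes, and of the 80 lower ones 16 were lower at rest, 20% and 8.47%. The mean of the denervation list was 7.38 ± 0.55 in exhausted old HCR and 7.14 ± 0.27 in exhausted old LCR rats, which are other animals than the rested ones. A test of the line difference at rest minus that after exhaustion gave 152 genes (1.59%), 74 positive (0.774%) and 78 negative (0.816%), or 62 and 118 after quantile normalization, and 5 of the 11 denervation genes were among the negative ones. This test uses the same rested arrays again. Its value was -3.15 ± 0.66 (adjusted p = 0.00754) for Ampd3, -2.53 ± 0.54 (adjusted p = 0.00898) for Gadd45a, -2.10 ± 0.50 (adjusted p = 0.0229) for Myog and -2.10 ± 0.55 (adjusted p = 0.039) for Chrna1.

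Of the 10 genes with the smallest p in that test, 5 in each direction, 9 also passed between the exhausted lines. There 4.03% of all genes passed, but the exhausted difference is a part of the test that chose the 10, so that the 9 are no separate result. Mt2A had -4.18 ± 0.54, with means of 4.59 and 6.51 in rested old HCR and LCR rats and 6.89 and 4.62 in exhausted old HCR and LCR rats. The protease Adamts9 (-1.82 ± 0.26), the repressors Tgif1 (-1.70 ± 0.23) and Hes1 (-1.46 ± 0.22) and the adhesion receptor Pvr (-1.93 ± 0.29) followed. In the other direction stood the ubiquitin ligase Rnf125 (0.87 ± 0.13), the ephrin Efna1 (0.89 ± 0.15), the apelin receptor Aplnr (1.53 ± 0.26), Podxl2 (0.69 ± 0.13) and Rgs4 (1.22 ± 0.23), a regulator of G protein signals. Slow fibre and complex I genes gave 0 calls in this test. Without old LCR replicate 3 it gave 340 genes, and 65 with no filter on low values.

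A small set of genes differed between the lines at both ages and in both states. With the young exhausted rats included, 21 of the 9558 genes tested were higher in HCR and 7 lower in all 4 comparisons at the threshold. The threshold asks for no gap between the lines. Of those named here Cyp2j4, Fkbp5, Plat, Pter, Ranbp3l, Eqtn and Copg2 overlapped in old rats at rest. Between young HCR and young LCR rats after exhaustion 485 genes passed (5.07%), 363 higher (3.8%) and 122 lower (1.28%) in HCR. Those furthest from 0 in old rats at rest were Acadsb, Cyp2j4, Cdc42ep2, Fkbp5, Plat and Pter on the higher side. Cyp2j4, a fatty acid epoxygenase, lay at 5.72, 7.15 and 7.36 in HCR rats, against 5.57, 5.76 and 6.08 in LCR rats (1.13 ± 0.19); it is 1 of a family of similar genes. Cdc42ep2, an effector of the GTPase Cdc42, differed by 0.85 ± 0.13 without overlap, the plasminogen activator Plat by 0.78 ± 0.13 and Pter by 0.73 ± 0.15.

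On the lower side stood Mtarc1, H19, Ranbp3l, Eqtn, Bola1 and Copg2. H19, a long noncoding RNA that is imprinted and abundant in embryonic muscle, lay at 10.86, 11.19 and 11.46 in HCR rats, against 12.20, 12.36 and 12.85 in LCR rats, without overlap (-1.28 ± 0.16, adjusted p = 1.26e-06). Its young difference was -1.09. Mtarc1 differed by -2.26 in old and by -1.27 in young rats at rest. Ranbp3l had -1.15 ± 0.32, with LCR rats spread from 4.67 to 7.40, Eqtn -0.83 ± 0.17, Bola1 -0.62 ± 0.15 and the coatomer subunit Copg2 -0.55 ± 0.12.

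Amylase Amy1 was also without overlap, at 4.18 to 6.47 in HCR rats, against 3.14 to 4.15 in LCR rats (1.49 ± 0.36), and differed by 1.90 in young rats. Amylase genes are near-identical copies, so that which copy the value stands for is uncertain. The 14 highest also held the retinal dehydrogenase Aldh1a1 (1.18 ± 0.36) and Apold1, an early response gene of endothelium (1.17 ± 0.34). The call of Apold1 was lost without HCR replicate 1 and without LCR replicate 6, and that of Aldh1a1 without HCR replicate 1 and without LCR replicates 2, 4 or 5, 1 at a time.

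**Figure D5:**
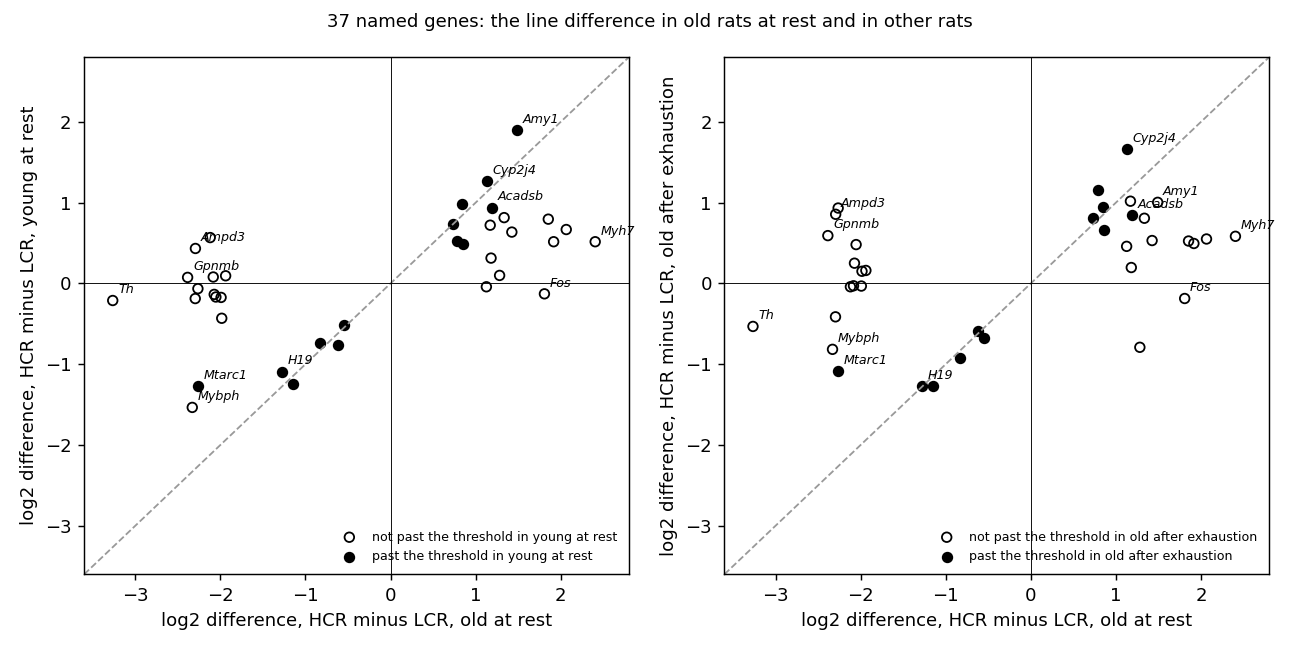
Log2 line difference, HCR minus LCR, of 37 named genes in old rats at rest (horizontal) against young rats at rest (left) and old rats after exhaustion (right), filled where the gene passed in the group on the vertical axis, with a dashed line of equal values. Th, Gpnmb and Ampd3 lie far left with values near or above 0 on the vertical axes, while Acadsb, Cyp2j4, Mtarc1 and H19 lie away from 0 on both axes.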

How the data were processed

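RNA of 48 rat muscle samples was hybridised to Affymetrix Rat Gene ST 2.1 arrays, so that there is no sequencing depth and precision is limited by how many arrays there are and by how far a signal lies over background. The deposited values are log2 per probe set and array. Per the design text of the series they came from Expression Console, and per the submitters' processing notes from RMA and oligo; their versions, and which of them made the values, are not given in the sources used here. As background, RMA corrects for background signal, quantile-normalizes and summarises probes, which hides any shift that most genes share.

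Of 36685 probe sets 14824 named exactly 1 gene in the platform's annotation, 829 named several and 21032 none. Entrez identifiers matched 14670 of them to current rat records and symbols 89 more. The brightest probe set stood for a gene, which mattered for 234 of 14557 genes. Tested were the 9558 genes that exceeded the overall median, 4.54, in 6 or more arrays. limma 3.58.1 in R 4.3.3 fitted a mean for each of 8 groups (40 residual and 3.77 prior degrees of freedom). All p-values are two-sided and were adjusted over all genes by the Benjamini-Hochberg method, with a threshold of 0.05. Replicates carry no pairing in the labels. Figures were drawn with Python 3.11.15 and matplotlib 3.10.9.

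The comparison, the 43 gene lists and the named genes were chosen with earlier results of these data known, so that a list's count is a description and no list was tested as a set. Named were the 14 genes per direction with the largest differences past the threshold, up to 5 per direction by smallest p for each of the 2 interactions, up to 6 per direction past the threshold with 1 sign in all 4 strata, and up to 4 members of each list (up to 2 where none passed). Predicted genes were not named. Chrng, Hdac4 and Myh7b, and the genes of the closing observations, were named after their values were seen. In simulated data 64.2% of differences of 0.5, 97% of 1 and 100% of 2 on the log2 scale were recovered among 200 changed of 9558 genes, with 13 false calls of 187. There the genes were independent, with 1 spread per gene in all 8 groups and changes of random sign. The real arrays had a wider spread in old LCR and mostly 1 direction of change. These shares are therefore not the error rates of the comparison. Alternatives were other scalings, filters, weights, moderation, probe set rules and arrays left out.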

Additional observations from a re-analysis of the deposited data

Results flagged for a closer look

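Single rats stood far from the other 5 of their group in 21 of 362 sets of 6 values looked at (5.80%, where chance gives about 1 in 20). In old LCR rats replicate 3 was low in Ampd3 (6.51), Myog (6.37), Trim63 (9.91), Tubb6 (6.25) and Tgif1 (5.20), and high in Il6r (6.88). LCR replicate 2 was high in albumin (Alb, 11.2), C3 (7.48), Crp (6.49) and the mean of the liver plasma protein genes (6.78), and low in the mean of the insulin and IGF genes (7.96). LCR replicate 6 was high in Ifit2 (7.71) and LCR replicate 4 low in Igf1r (7.22). In old HCR rats, replicate 1 was high in Hbb-b1 (8.39) and Slc51a (5.13), replicate 2 in Gadd45a (9.59), and replicate 3 in Eda2r (9.62) and Sln (8.10). HCR replicate 5 was low in Tp53inp1 (8.10), and HCR replicate 6 in Adamts9 (6.37) and Timp3 (9.02).

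The line difference at rest changed with age, as old minus young log2 differences, for Th (-3.05), Kcnq5 (-1.01), Tcp11l1 (-0.86), Sparc (0.80), Lmod1 (0.98) and Tekt1 (1.47).

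Some of the 139 named genes were named for passing limma's test of rest minus exhausted in old rats. Others were named for their difference at rest, which is a part of that test. Over all genes tested 1.59% passed it. Of the 139 named genes 30 had a line difference that was not the same in rested and exhausted old rats by this test. That share follows in part from how the genes were named. Among denervation and atrophy genes these were Ampd3 (-3.15), Gadd45a (-2.53), Myog (-2.10), Chrna1 (-2.10), Trim63 (-0.93) and Ctsl (-0.76). Among genes most different between the rested old lines they were Tubb6 (-3.20), Gpnmb (-2.98), Th (-2.73), Ppp1r14c (-2.32) and Slc51a (-2.13). Stress, early response and signalling genes were Mt2A (-4.18), Rrad (-2.65), Tgif1 (-1.70), Hes1 (-1.46), Irs2 (-1.05), Tp53inp1 (-0.82), Txn1 (-0.72) and Egr1 (2.07). The others with a negative value were Pvr (-1.93), Adamts9 (-1.82) and B2m (-0.78). Positive values stood for Aplnr (1.53), Tekt1 (1.27), Rgs4 (1.22), Efna1 (0.89), Rnf125 (0.87), Lmod1 (0.85), Podxl2 (0.69) and Kcnj11 (0.53).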

How the results depend on the processing

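Counts of genes past the threshold moved with the arrays in the fit and with the scaling. For old rats at rest, 1173 became 698 after quantile normalization, 324 with the arrays of the contrast only, and 831 to 1323 when single arrays were left out. For young rats at rest, 145 became 93 after quantile normalization, 82 without a filter, 268 with array weights, 76 with the contrast's arrays only, 244 without the 3 arrays with the highest lower quartiles, and 45 to 150 without single arrays. For old rats after exhaustion, 385 became 231 with the contrast's arrays only, and 284 to 438 without single arrays. The 6 genes of the test between ages became 13, 0, 2, 70 and 18 under quantile normalization, no filter, the stricter filter, weights and robust moderation, 0 with the contrast's arrays only, 24 without the 3 arrays, 2 without old LCR rest replicates 1 and 6, and 0 to 77 without single arrays. The 152 genes of the test between states became 65 without a filter, 56 without LCR replicates 1 and 6, 32 with the contrast's arrays only, and 76 to 340 without single arrays. Of 116 named genes past the threshold in old rats at rest 65 lost the call with the 12 arrays alone, 26 without LCR replicates 1 and 6 and 25 after quantile normalization, and 0 reversed; the sign of a list's median changed in 34 runs over 12 lists. The cause was not tested. By construction, fits with fewer arrays have less power, and a fit of the contrast's arrays alone also takes its spread from those groups only. No paired analysis was possible because the labels give no pairing or replicate numbers.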

Other observations

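A pair of genes known from fat synthesis, Scd and Thrsp, were lower in old HCR than in old LCR muscle at rest; no list of such genes was examined, and these and the genes that follow were chosen after their values were seen. Scd, the stearoyl-CoA desaturase, lay at 4.91, 6.02 and 7.15 in HCR rats, against 6.48, 8.22 and 8.96 in LCR rats (-1.75 ± 0.43, limma adjusted p = 0.00523). Thrsp, a nuclear regulator of lipogenesis, lay at 6.92, 7.36 and 7.85 in HCR rats, against 6.74, 8.98 and 9.74 in LCR rats (-1.32 ± 0.36, adjusted p = 0.0135), and LCR replicate 3 was again the low one. Neither passed in young rats at rest, with differences of -0.84 and -0.33.

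A second metallothionein, Mt1f, was lower in HCR like Mt2A, at 3.86, 5.26 and 5.82 in HCR rats, against 5.67, 6.59 and 7.28 in LCR rats (-1.42 ± 0.30, adjusted p = 0.0014); metallothioneins are close copies, and signal may be shared. Sirpa, a receptor of macrophages and neurons, lay at 6.18, 6.57 and 6.84 in HCR rats, against 6.88, 7.83 and 9.12 in LCR rats, without overlap (-1.33 ± 0.23, adjusted p = 0.000242). The alpha-tubulin Tuba1a lay beside Tubb6, with a difference of -1.03 ± 0.25 (adjusted p = 0.0047).

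Among immediate early genes not named above, Nr4a1 was higher in HCR at rest by 0.89 ± 0.18 and Ier2 by 0.84 ± 0.27. The phosphatase Dusp1 was higher by 0.79 ± 0.18, without overlap, and Klf2 by 0.76 ± 0.22.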
